A study of Mus musculus with 11 samples.

Results

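The genes of oxidative phosphorylation (OXPHOS) were examined in cerebellar granule cell precursors (GCps) by RNA-Seq, with the genes of the nucleus and of the mitochondrial genome kept apart. Members were taken by symbol among protein-coding genes. They begin with Ndufa, Ndufb, Ndufc, Ndufs, Ndufv, Uqcr, Cox4i, Cox5, Cox6, Cox7, Cox8 or Atp5, are Sdha, Sdhb, Sdhc or Sdhd, or begin with mt-Nd, mt-Co, mt-Atp or mt-Cytb. This gave 106 of the 38924 genes in the count tables, 93 nuclear and 13 mitochondrial. The nuclear set held 36 genes of complex I, 4 of complex II, 8 of complex III, 20 of complex IV, 16 of complex V and 8 complex I assembly factors (Ndufaf), and Atp5s, which is no subunit of the ATP synthase in spite of its name. Ndufa4 and its relative Ndufa4l2 were placed with complex IV.

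GCps were purified on Percoll gradients from cerebella of mice at postnatal day 7 on a C57Bl/6J background, after lobules IX and X had been cut away. Control mice were Chd7 fl/+ by the sample labels and the study's methods, whereas the notes on extraction give them 2 floxed Chd7 alleles. In cko mice, which were Math1-Cre Chd7 fl/fl, the Cre driver acts in the granule cell lineage and spares the most posterior lobules. Cerebella were pooled within a genotype, there were 2 libraries of each genotype, and controls and cko mice alike carry floxed Chd7 alleles. No source gives the animals behind each library, so that the spread between the control libraries, on which the p-values also rest, may be technical.

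Oxidative phosphorylation makes most of the ATP of a neuron. Complexes I to IV of the inner mitochondrial membrane pass electrons from NADH and succinate to oxygen, all but complex II pump protons as they do so, and complex V, the ATP synthase, lets the protons flow back to make ATP. Complex II is built from nuclear genes alone, while the others join subunits made in the cytosol with a few core subunits that the mitochondrial genome encodes, so that both genomes must supply parts. Proliferating GCps are known for a high rate of glycolysis, and granule neurons rely more on oxidative phosphorylation as they mature.

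Total counts were 77346481 and 61836588 in control 1 and 2 and 73480074 and 62437759 in cko 1 and 2. Levels are given as CPM (counts scaled to a common library size with TMM), per kilobase of transcript where genes are compared with each other. All 8 GCp markers passed the filter on low counts, among them Atoh1, which defines the precursors, at 25.6 and 30.1 CPM in control 1 and 2 and 37.0 and 29.1 CPM in cko 1 and 2, and Zic1 at 1485 to 1707 CPM. Chd7 itself, counted over the whole gene, had 322 and 319 CPM in control 1 and 2 and 392 and 355 CPM in cko 1 and 2 (adjusted p = 0.418, edgeR's quasi-likelihood test), and these counts do not check the labels. By the study's quantitative RT-PCR of GCps purified at postnatal day 7, Chd7 was efficiently deleted in cko mice. Reln encodes the secreted glycoprotein reelin, and the study found it reduced in cko by in situ hybridization and by RT-PCR of purified GCps. Here Reln was at 783 and 792 CPM in the controls and 331 and 335 CPM in cko (log2 fold change -1.24, adjusted p = 0.0071, edgeR). Library cko 1 was apart from the other 3 in Xist, at 793 CPM against at most 0.548 CPM, and in the Y-linked gene Ddx3y, at 0 against 63.7 to 69.1 CPM. The cko libraries therefore came from animals of different sex, and 3 members, Ndufa1, Ndufb11 and Cox7b, are X-linked. In bulk RNA, fewer cells of a type and less RNA per cell cannot be told apart.

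Nuclear OXPHOS mRNAs lay slightly lower in cko GCps as a group, and no single one of them passed edgeR's test for a decrease without a replicate block. Of the 93 genes, 90 passed the filter on low counts, and 79 of these had a log2 fold change below 0, against 50.1% of the 16436 genes tested. Their median log2 fold change was -0.15, which is a difference of -9.74%, with quartiles of -0.20 and -0.10, while the median over all genes tested was -0.00056. Only Cox6a2, the heart and skeletal muscle isoform of a complex IV subunit, was called, and it rose. That is 1 of 90 genes, against 1.58% of all genes called in either direction, 0.809% called higher and 0.773% called lower. DESeq2 also called 1 of them, against 5.6% of all genes it tested. Cox6a2 passed the filter on low counts through the cko libraries alone. An unadjusted p under 0.05 was found for 8 nuclear genes, against 13.6% of all genes, and 7 of these were lower, against 6.21%. With the replicate number as a block 3 nuclear genes were called, Cox6a2 and 2 that were lower, Ndufb7 and Ndufs5, against 6.15% of all genes.

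The median log2 fold change was below 0 in every complex. It was -0.15 in complex I, -0.17 among its assembly factors, -0.09 in complex II, -0.16 in complex III, -0.11 in complex IV and -0.15 in complex V. Both cko libraries were below both control libraries for 35 of the 90 genes, or 38.9%, against 21.2% of all genes, and above them for 3, against 22.7%. The standard error (SE) of a nuclear gene's log2 fold change had a median of 0.12 and was under 0.15 for 64 genes, so that for most of them it was about as large as the difference. Scaling by total counts gave a nuclear median of -0.098. The size of the median also depended on the control libraries. Without control 1 the median was -0.08 and 57 genes were below 0, and without control 2 the median was -0.22 and 80 were below 0. In the 2 fits that left out a cko library the median was -0.14, with 72 and 79 genes below 0. In all, 46 genes were below 0 in each of the 4 fits.

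**Figure D1:**
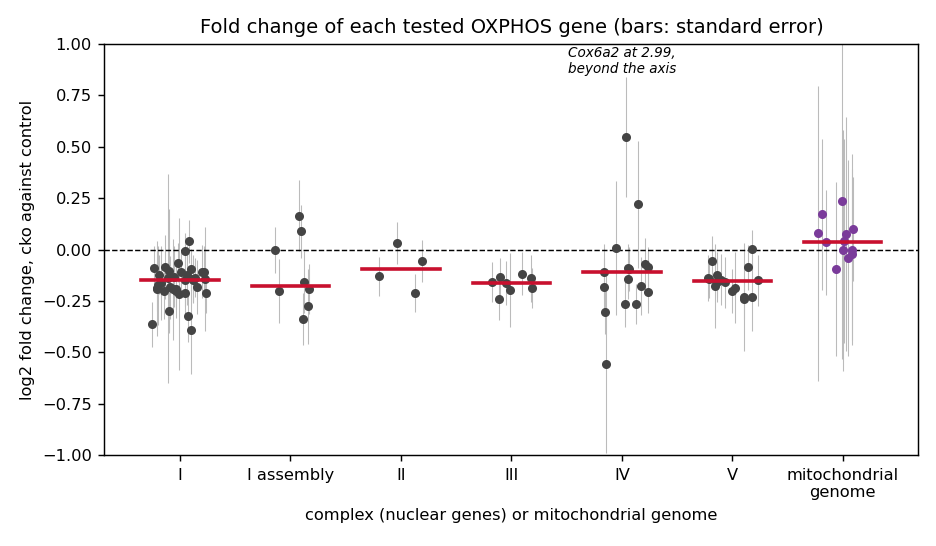
Log2 fold change of each tested nuclear gene by complex and of the mitochondrial genes (points, with standard errors as grey bars), the median of each group (red line) and the median of all genes tested (dashed line). The medians of the 6 nuclear groups lie between -0.17 and -0.09, the mitochondrial median is 0.04 with far longer error bars, Cox6a2 at 2.99 lies beyond the axis, and Atp5s is not drawn.

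In complex I, which takes electrons from NADH, 35 of 36 nuclear genes had a log2 fold change below 0 and 0 were called. Ndufb7, an accessory subunit of the membrane arm, had 61.1 and 65.0 CPM in control 1 and 2 and 45.7 and 52.3 CPM in cko 1 and 2. Both cko libraries were below both controls, and the log2 fold change was -0.36 with a standard error of 0.11 and an unadjusted p of 0.0135, which missed the threshold after adjustment (adjusted p = 0.195, edgeR's quasi-likelihood test, and 0.0381 with the replicate block). Ndufb9, another accessory subunit of the membrane arm, was at 122 and 113 CPM in the controls and at 92.8 and 98.8 CPM in cko. It also did not overlap between the groups (log2 fold change -0.30, adjusted p = 0.217). Per length it had the highest control level of the nuclear complex I genes, at 168 CPM per kilobase against 136 in cko, and 19.5% of its exonic length is shared with another gene on the same strand.

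Some core subunits of complex I, which carry its iron-sulfur clusters, overlapped between the groups. Ndufs1, the largest of them, was at 108 and 109 CPM in the controls and 107 and 109 CPM in cko. Ndufs8 alone of the 36 had a log2 fold change above 0, at 0.04 (standard error 0.10). Ndufs1 and Ndufs8 were picked after their values were seen. The 3 X-linked members did not stand apart from the rest, since Ndufa1 had a log2 fold change of -0.19, Ndufb11 of -0.15 and Cox7b of -0.09.

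Complex I assembly factors help to build the complex without being part of it, and 5 of the 8 had a log2 fold change below 0. Ndufaf3, which acts early in assembly, had 18.6 and 18.9 CPM in the controls and 13.9 and 15.8 CPM in cko. Its groups did not overlap, but the difference missed the threshold (log2 fold change -0.34 ± 0.13 SE, adjusted p = 0.311, edgeR). Ndufaf5, which modifies a core subunit, was at 17.6 and 19.1 CPM in the controls and 16.1 CPM in both cko libraries (adjusted p = 0.598). Ndufaf2, which acts late in assembly, had the highest level per length among the 8, at 35.2 CPM per kilobase in control and 31.6 in cko, but 65.7% of its exonic length is shared with a gene on the other strand, which makes its count uncertain.

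Complex II, succinate dehydrogenase, links the citric acid cycle to the chain, and 0 of its 4 genes were called. Sdhb, the iron-sulfur subunit, was at 117 and 114 CPM in the controls and at 95.8 and 103 CPM in cko. The groups did not overlap (log2 fold change -0.21 ± 0.09 SE, adjusted p = 0.387, edgeR), and Sdhb was also the highest of the 4 per length in control, at 101 CPM per kilobase. Sdhd, a membrane anchor, was at 91.3 and 93.4 CPM in the controls and 79.9 and 88.9 CPM in cko (log2 fold change -0.13, adjusted p = 0.664). Sdha, the flavoprotein that oxidizes succinate, had a log2 fold change of 0.03 (standard error 0.10) and overlapped between the groups.

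All 8 nuclear genes of complex III, cytochrome bc1, had a log2 fold change below 0, from -0.24 to -0.12, and 0 were called. Uqcrq, a small structural subunit, had 71.9 and 71.6 CPM in the controls and 57.5 and 63.9 CPM in cko. The groups did not overlap, with a log2 fold change of -0.24 ± 0.10 SE (adjusted p = 0.362, edgeR). Uqcrh, the hinge protein that helps cytochrome c dock, was highest per length, at 286 CPM per kilobase in control and 251 in cko. Its CPM was 162 and 151 in the controls and 132 and 143 in cko (log2 fold change -0.19, adjusted p = 0.500).

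Among the 17 tested genes of complex IV, cytochrome c oxidase, 13 had a log2 fold change below 0 and 1, Cox6a2, was called higher. Cox5b, a subunit on the matrix side, was at 130 and 113 CPM in the controls and 94.4 and 102 CPM in cko. The groups did not overlap (log2 fold change -0.30 ± 0.11 SE, adjusted p = 0.275, edgeR). Cox6b1, a subunit facing the intermembrane space, was at 182 and 169 CPM in the controls and 141 and 151 CPM in cko (log2 fold change -0.26, adjusted p = 0.292). Ndufa4, once assigned to complex I and now known as a complex IV subunit, had the highest level per length, at 483 CPM per kilobase in control and 419 in cko, and its groups did not overlap (log2 fold change -0.20 ± 0.10 SE, adjusted p = 0.488).

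In complex V 15 of 16 nuclear genes had a log2 fold change below 0 and 0 were called. Atp5o, the subunit that ties the catalytic head to the peripheral stalk, was at 265 and 296 CPM in the controls and 240 and 236 CPM in cko. The groups did not overlap (log2 fold change -0.24 ± 0.10 SE, adjusted p = 0.370, edgeR), although 35.6% of its exonic length is shared with genes on the other strand. Atp5h, a stalk subunit, was at 164 and 141 CPM in the controls and 134 and 132 CPM in cko (log2 fold change -0.20, adjusted p = 0.511). Atp5b, the catalytic beta subunit, was the most abundant of the nuclear set, per length and by CPM. It was at 1313 and 1284 CPM in the controls and 1135 and 1225 CPM in cko, or 678 and 616 CPM per kilobase (log2 fold change -0.14 ± 0.11 SE, adjusted p = 0.694).

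The c-ring of complex V is made from 3 genes that encode the same mature protein, and the counts of Atp5g1 and Atp5g2 are uncertain. Atp5g3 had 259 and 212 CPM in the controls and 222 and 203 CPM in cko (log2 fold change -0.15). Atp5g2 was at 93.0 and 104 CPM against 85.9 and 104 CPM (log2 fold change -0.05), and Atp5g1 at 72.1 and 69.3 CPM against 70.1 and 71.5 CPM (log2 fold change 0.00). All 3 overlapped between the groups. For Atp5g2 100% of the 31-base words of the transcript occur elsewhere in the genome and for Atp5g1 87.6%, against 0.585% for Atp5g3. More than 50% of the words recur elsewhere for 11 nuclear genes in all, among them Ndufs5, Atp5l and Atp5h.

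Several complex IV subunits come in a general form and a form restricted to certain tissues, and here the general forms carried nearly all of the RNA. Cox6a1, the general form of subunit 6A, was at 239 and 185 CPM in the controls and 196 and 178 CPM in cko, whereas Cox6a2 was at 0.0522 and 0.0663 CPM in the controls and 0.376 and 0.585 CPM in cko. In counts Cox6a2 had 4 and 4 in the controls and 29 and 36 in cko. It passed the filter through the cko libraries alone, so a gene this rare in the controls could be tested only if higher in cko. Of its exonic length 10.3% is shared with Itgad on the other strand. Both cko libraries were far above both controls, with a log2 fold change of 2.99 (standard error 0.51, adjusted p = 0.0474, edgeR's quasi-likelihood test). The call was lost when any of the 4 libraries was left out (adjusted p from 0.0583 to 0.179, log2 fold change from 2.64 to 3.29), and without edgeR's robust option (adjusted p = 0.0597). Cox6a1 had a log2 fold change of -0.18 (standard error 0.14, adjusted p = 0.683), so that the sum of both isoforms was set by Cox6a1.

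The coding sequences of this isoform pair are shown to compare the called gene with its abundant partner. Of the 31-base words of the Cox6a2 transcript 0% occur elsewhere in the genome. Cox6a1 lies at chr5:115345642-115348981 and has 339 coding bases, and Cox6a2 lies at chr7:128205435-128206387 and has 294, both on the minus strand of GRCm38. Of the 340 columns of their alignment 59.4% were identical. The last 150 coding bases of each are printed, with the longest run of bases that both coding sequences share, 12 bases long, in capitals.
Cox6a1: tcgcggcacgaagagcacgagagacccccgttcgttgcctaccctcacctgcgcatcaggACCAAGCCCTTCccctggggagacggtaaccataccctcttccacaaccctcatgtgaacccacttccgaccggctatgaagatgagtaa
Cox6a2: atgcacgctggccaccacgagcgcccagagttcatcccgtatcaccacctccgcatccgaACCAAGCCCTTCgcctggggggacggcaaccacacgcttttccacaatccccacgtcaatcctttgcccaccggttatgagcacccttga

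Skeletal muscle markers were higher alongside Cox6a2. All 15 listed genes were higher in cko with both cko libraries above both controls, against 22.7% of all genes, and 4 were called with edgeR, namely Ckm, Myh3, Tnnt1 and Tnnt3, against 0.809% of all genes called higher. DESeq2 called 14 of the 15, against 5.6% of all genes it tested. Each of the 4 edgeR calls was lost without control 2 (adjusted p from 0.0731 to 0.148), and those of Myh3 and Tnnt3 also without control 1 (0.0812 and 0.0608). Their summed level was 13.9 and 11.1 CPM in the controls and 43.3 and 87.2 CPM in cko, and their median log2 fold change was 2.53. Myh3, the embryonic myosin heavy chain and the highest of them in cko, was at 2.98 and 1.97 CPM in the controls and 12.1 and 22.3 CPM in cko. The muscle creatine kinase gene Ckm had 9 and 3 counts in the controls and 73 and 146 in cko, and it too passed the filter through cko alone. So did Tnnc2, with 9 and 1 counts in the controls and 53 and 39 in cko. Mb did as well, with 6 and 9 against 52 and 111 counts. Genes this rare in the controls could be tested only if higher in cko. The part of the skeletal muscle markers in the Cox6a2 difference was not tested.

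The other muscle isoforms did not all run with Cox6a2. Cox8b, the muscle form of subunit 8, had 1 and 1 counts in the controls and 4 and 11 in cko, too few to be tested. Cox7a1, the muscle form of subunit 7A, was at 0.339 and 0.232 CPM in the controls and 0.182 and 0.211 CPM in cko (log2 fold change -0.55 ± 0.43 SE, adjusted p = 0.683, edgeR). Their general partners were far more abundant. Cox8a was at 160 and 145 CPM in the controls and 137 and 140 CPM in cko, and Cox7a2 at 150 and 115 CPM against 122 and 112 CPM, with 0 of these called.

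Forms known from testis, lung or hypoxia were near the floor of detection as well. Cox6b2, the testis form of subunit 6B, was at 0.796 and 0.613 CPM in the controls and 1.09 and 0.976 CPM in cko (log2 fold change 0.55 ± 0.29 SE, adjusted p = 0.511), with both cko libraries above both controls. Cox4i2, the form of subunit 4 known from lung, was at 0.666 and 0.779 CPM against 0.596 and 0.862 CPM, and Ndufa4l2, which is induced by hypoxia in many cells, at 1.67 and 2.40 CPM against 1.85 and 2.89 CPM. Both overlapped between the groups. Cox4i1, the general partner, was at 375 and 324 CPM in the controls and 281 and 302 CPM in cko (log2 fold change -0.26 ± 0.11 SE, adjusted p = 0.374). Cox7b was at 87.6 and 94.1 CPM against 81.0 and 90.2 CPM, while its testis partner Cox7b2 had 6 and 1 counts against 4 and 2, and Cox8c had 0 counts in every library. Cox7b2, Cox8b and Cox8c were the 3 nuclear members that did not pass the filter.

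**Figure D2:**
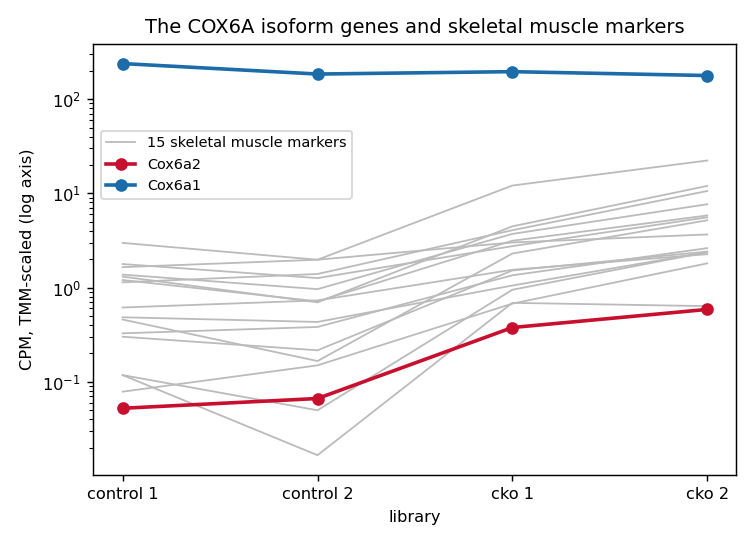
CPM of Cox6a2 (red), its general partner Cox6a1 (blue) and the 15 skeletal muscle markers (grey) in the 4 libraries, on a log axis with 1 line per gene. Cox6a2 goes from at most 0.0663 CPM in the controls to at least 0.376 CPM in cko, the muscle markers are higher in both cko libraries, and Cox6a1 stays between 178 and 239 CPM.

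Library by library, the nuclear genes were highest in control 1 and the mitochondrial genes were split by replicate number. Measured against each gene's own mean over the 4 libraries on the log2 scale, the median deviation of the tested nuclear genes was 0.14 in control 1, 0.0041 in control 2, -0.08 in cko 1 and -0.06 in cko 2. The same median for the mitochondrial genes was -0.31 in control 1, 0.38 in control 2, -0.60 in cko 1 and 0.52 in cko 2. In the nuclear genes control 1 and control 2 were thus farther apart than control 2 and either cko library.

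**Figure D3:**
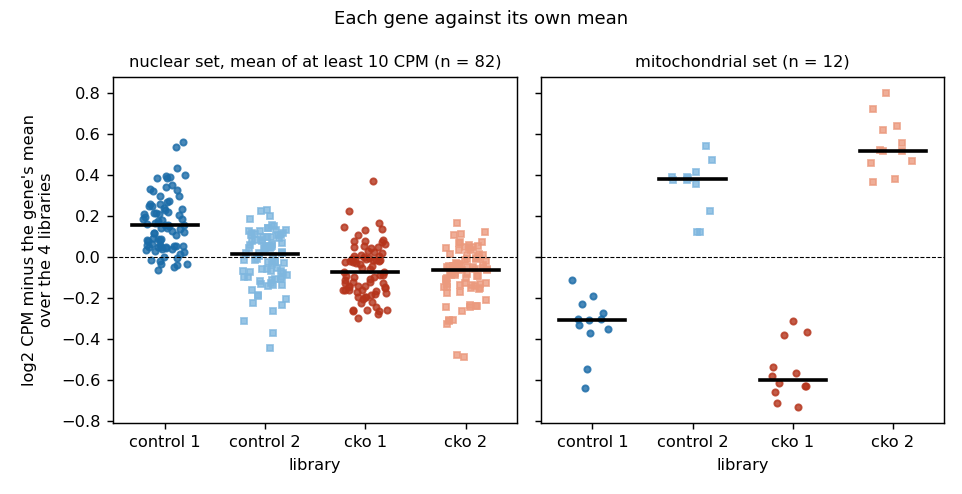
Log2 CPM of each gene minus its own mean over the 4 libraries, for the 82 nuclear genes with a mean of at least 10 CPM (left) and the 12 tested mitochondrial genes (right), with the median of each library as a black bar. The nuclear medians fall from control 1 to the cko libraries with wide overlap, whereas all mitochondrial genes sit low in both replicate 1 libraries and high in both replicate 2 libraries.

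Within each genotype, nuclear genes with shorter transcripts tended to have a lower ratio of replicate 2 to replicate 1, although longer ones such as Ndufv1 and Sdhc were lower in replicate 2 as well. Ndufb3, a small accessory subunit of complex I, went from 56.0 to 27.9 CPM between the control libraries and from 49.1 to 27.1 CPM between the cko libraries. Ndufa3, another one, went from 68.9 to 36.8 CPM and from 53.2 to 37.9 CPM. These 2 genes were picked after their values were seen. Over the 82 nuclear genes with a mean of at least 10 CPM, the log2 ratio of replicate 2 to replicate 1 had a Pearson correlation of 0.892 between control and cko. The points are genes, which share the libraries and are no independent replicates, and over 9399 other protein-coding genes at this level the correlation was 0.299. Against log2 transcript length the ratio had a correlation of 0.439 in control and 0.336 in cko over the 82 genes, and of 0.202 and -0.014 over the 9399 others. Both replicate 2 libraries were below both replicate 1 libraries for 34 of the 90 tested nuclear genes, against 20.5% of all genes.

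Transcript length also went with the genotype difference, among members and other genes with a mean of at least 10 CPM. In nuclear members with transcripts of up to 700 bases the median log2 fold change was -0.18 and 35 of 36 were below 0, over 700 and up to 1200 bases it was -0.15 with 22 of 23 below 0, and in longer ones it was -0.12 with 20 of 23 below 0. Other protein-coding genes showed the same order. Their median was -0.13 up to 700 bases, where 164 of 191 were below 0, -0.11 up to 1200 bases, where 509 of 641 were, and -0.0077 in the 8567 longer genes, where 51.9% were. The class over 1200 bases has no upper edge. Its members, which reach at most 3632 bases, were not matched in length with the other genes. The part of transcript length in the nuclear difference was not tested.

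**Figure D4:**
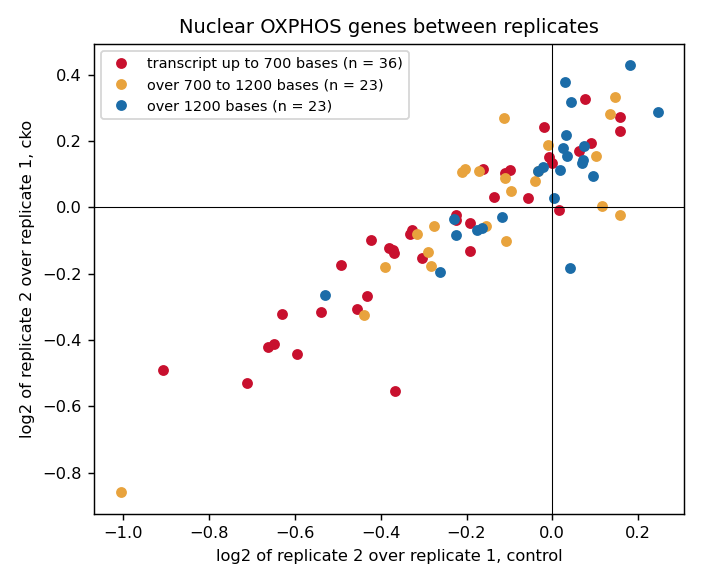
Log2 ratio of replicate 2 to replicate 1 in control (horizontal) and in cko (vertical) for the 82 nuclear genes with a mean of at least 10 CPM, colored by transcript length. The points run along the diagonal (r = 0.892), and the lowest ones in both genotypes are mostly genes with transcripts of up to 700 bases.

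The mitochondrially encoded mRNAs did not differ between the genotypes beyond the spread of the libraries. Of the 13 genes 12 were tested, 0 were called with edgeR or DESeq2, 0 had an unadjusted p under 0.05, and for all 12 the groups overlapped. Their median log2 fold change was 0.04, with 7 above 0 and 5 below, and single values ran from -0.10 to 0.24. Standard errors were between 0.25 and 0.77, several times those of the nuclear genes, so that a difference as small as that of the nuclear set could not have been detected. Without control 2 or without cko 1 all 12 were above 0 (median 0.39 and 0.48), and without control 1 or without cko 2 all 12 were below 0 (median -0.29 and -0.65).

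Both replicate 2 libraries were above both replicate 1 libraries for 12 of 12 mitochondrial genes, against 18.2% of all genes. Mitochondrial mRNAs made up 2.08% of the counts in control 1 (95% Wilson interval 2.080 to 2.086%), 3.34% in control 2 (3.333 to 3.342%), 1.82% in cko 1 (1.816 to 1.822%) and 3.72% in cko 2 (3.719 to 3.729%). These intervals cover counting error only. The group means were 2.71% ± 0.887 (SD, n = 2) in control and 2.77% ± 1.35 (SD, n = 2) in cko, a difference far inside the spread, and with 2 libraries a group the smallest two-sided p of the exact permutation test is 0.333.

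The core of complex IV is encoded by 3 mitochondrial genes. mt-Co1, the highest of the whole set by CPM and the catalytic subunit that binds oxygen, was at 5554 and 8563 CPM in control 1 and 2 and 4261 and 8952 CPM in cko 1 and 2. mt-Co2, which receives electrons from cytochrome c, was at 2266 and 3593 CPM in the controls and 1770 and 3924 CPM in cko. mt-Co3, the third core subunit, was at 3348 and 5361 CPM in the controls and 2848 and 5723 CPM in cko. In each case cko 1 was the lowest library and cko 2 the highest. The log2 fold changes were -0.10, -0.04 and -0.02, with standard errors from 0.42 to 0.47. Per length mt-Co3 was the most abundant of the set, at 5554 CPM per kilobase in control and 5467 in cko.

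The 7 mitochondrial genes of complex I encode the proton-pumping membrane core. mt-Nd1 was at 1454 and 2458 CPM in the controls and 1267 and 2759 CPM in cko, mt-Nd2 at 843 and 1360 CPM against 671 and 1651 CPM, and mt-Nd4 at 1346 and 2210 CPM against 997 and 2549 CPM. They all showed the split by replicate number. mt-Nd5 was at 1090 and 1626 CPM against 1068 and 1991 CPM and mt-Nd3 at 315 and 370 CPM against 264 and 439 CPM. mt-Nd6, the only member read from the other strand of the mitochondrial genome, was at 219 and 472 CPM against 220 and 594 CPM, which was 2.16 times as high in control 2 as in control 1 and 2.70 times as high in cko 2 as in cko 1. Its log2 fold change between the genotypes was 0.24 (standard error 0.77).

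Complexes III and V have few mitochondrial genes. mt-Cytb, the cytochrome b of complex III, was at 2260 and 3631 CPM in the controls and 1870 and 4018 CPM in cko. mt-Atp6, the proton channel of the ATP synthase, was at 1859 and 3961 CPM in the controls and 1658 and 4491 CPM in cko, the widest split by replicate number beside that of mt-Nd6. mt-Atp8, a small partner subunit, was at 481 and 597 CPM in the controls and 441 and 715 CPM in cko. The transcripts of mt-Atp8 and mt-Atp6 share 43 bases, printed in capitals within the stretch chrM:7897-7999 of GRCm38 (plus strand), so that reads confined to them belong to both genes.
mt-Atp8 and mt-Atp6: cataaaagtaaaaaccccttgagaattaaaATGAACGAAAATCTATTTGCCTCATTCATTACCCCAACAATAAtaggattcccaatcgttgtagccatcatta

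**Figure D5:**
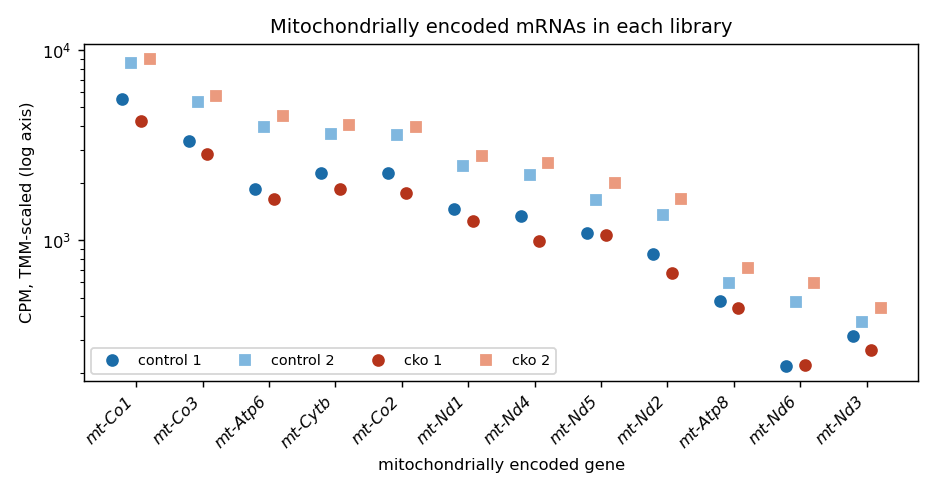
CPM of the 12 tested mitochondrially encoded genes in the 4 libraries, on a log axis, with circles for replicate 1, squares for replicate 2, blue for control and red for cko. For every gene both squares lie above both circles, and the genotypes overlap.

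mt-Nd4l, a complex I subunit, was nearly absent from the tables, with 1 count in control 1 and 0 in the other 3 libraries, although it lies between mt-Nd3 and mt-Nd4. It is 297 bases long (chrM:9877-10173, plus strand) and shares its last 7 bases, printed in capitals, with mt-Nd4.
mt-Nd4l: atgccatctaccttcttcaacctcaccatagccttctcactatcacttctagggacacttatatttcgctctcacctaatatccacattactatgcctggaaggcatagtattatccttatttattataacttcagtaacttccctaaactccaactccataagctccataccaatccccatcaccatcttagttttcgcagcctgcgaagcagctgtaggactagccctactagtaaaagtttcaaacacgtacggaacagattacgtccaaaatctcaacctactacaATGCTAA
The same 297 bases occur with 0 differences in the nuclear genome on chr1:24612404-24612700, in a copy of mitochondrial DNA. GENCODE vM21 places 7 genes in this copy, of which the count tables list only Gm10222 (chr1:24612407-24612700), with 1 count in control 2 and 0 elsewhere. Other mitochondrial genes have copies in the nuclear genome too, since 100% of the 31-base words of mt-Atp6, mt-Atp8, mt-Co2 and mt-Co3 occur there. The lowest of their levels in any library was 441 CPM. The 7 genes of the chromosome 1 copy were sought by their GENCODE vM21 identifiers, so that a gene listed under another identifier would have been missed. Whether the copy bears on the low count of mt-Nd4l was not tested.

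The balance of the genomes followed the replicate number as well. The summed level of the mitochondrial set was 1.85 and 3.24 times that of the nuclear set in control 1 and 2 and 1.77 and 3.75 times in cko 1 and 2. The summed nuclear level was 11396 and 10563 CPM in the controls and 9789 and 10078 CPM in cko, so that both cko libraries were below both controls. Mitochondrial ribosomal RNA was 0.0559% and 0.0699% of the counts in the controls and 0.0422% and 0.0740% in cko, and the 22 mitochondrial tRNA genes had 0 counts in each library.

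The promoters of the nuclear genes hold the motifs known from OXPHOS genes more often than other promoters do. RefSeq windows of 300 bases on GRCm38.p6, from 250 before the start to 50 after it, were at hand for 74 of the 93 nuclear genes (79 windows), and motifs were sought on both strands. The NRF1 motif was in 25.3% of these windows and in 4.60% of all 32851 windows. For the ETS motif CCGGAAG the shares were 22.8% and 8.86%, for the YY1 motif AAGATGGC 12.7% and 2.75%, and for the ERR motif TCAAGGTCA 2.53% and 0.423%. The median log2 fold change was -0.16 in the 19 genes with the NRF1 motif and -0.15 in the 55 without it, and -0.18 in the 18 genes with the ETS motif and -0.15 in the 56 without it. For the YY1 motif it was -0.19 in 10 genes with it and -0.15 in 64 without, and for the ERR motif -0.14 in 2 genes with it and -0.16 in 72 without. These gaps were not tested. A match describes the letters of the window and says nothing of binding.

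An example of each of 3 motifs is shown, with the motif in capitals, in bases that lie before the start of the gene. The window of Ndufs5, which had the lowest log2 fold change of complex I (-0.39, standard error 0.22, adjusted p = 0.550, edgeR, and 0.0359 with the replicate block), holds an NRF1 motif (chr4:123718203-123718436), that of Uqcr11 an ETS motif (chr10:80406831-80407071), and that of Atp5g3 an ERR motif (chr2:73911327-73911576), each on the minus strand.
Ndufs5: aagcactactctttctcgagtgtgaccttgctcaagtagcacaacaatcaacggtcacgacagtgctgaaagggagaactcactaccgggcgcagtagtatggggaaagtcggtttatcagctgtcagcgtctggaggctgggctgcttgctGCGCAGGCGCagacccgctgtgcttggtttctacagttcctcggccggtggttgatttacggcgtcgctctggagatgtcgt
Uqcr11: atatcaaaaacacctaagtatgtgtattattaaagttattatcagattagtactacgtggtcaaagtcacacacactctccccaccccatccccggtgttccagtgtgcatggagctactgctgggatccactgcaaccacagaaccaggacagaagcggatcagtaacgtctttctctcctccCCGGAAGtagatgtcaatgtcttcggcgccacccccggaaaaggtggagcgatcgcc
Atp5g3: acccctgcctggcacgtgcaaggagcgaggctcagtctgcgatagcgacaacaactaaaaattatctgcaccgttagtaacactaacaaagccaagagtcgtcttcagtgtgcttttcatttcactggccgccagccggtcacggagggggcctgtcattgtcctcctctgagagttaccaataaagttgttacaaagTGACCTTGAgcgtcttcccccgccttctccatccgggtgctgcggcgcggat

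Genes that work beside the complexes had medians nearer to 0. Of 39 tested genes for cytochrome c and for the assembly of the complexes 28 were below 0, and their median log2 fold change was -0.07. Of these genes 0 were called with edgeR and 1 with DESeq2, against 1.58% and 5.6% of all genes tested. The member with the lowest p, Acad9, which helps to assemble complex I, was at 53.2 and 55.9 CPM in the controls and 70.4 and 72.6 CPM in cko (log2 fold change 0.39 ± 0.09 SE, adjusted p = 0.119, edgeR). Its log2 fold change was thus above 0, whereas 35 of the 36 nuclear genes of complex I were below 0. The mitochondrial ribosome, which makes the mitochondrially encoded subunits, had 63 of 77 genes below 0 with a median of -0.09, and 25 of them, or 32.5%, had both cko libraries below both controls, against 21.2% of all genes. Its lowest p was that of Mrpl58, at 49.9 and 47.9 CPM in the controls and 39.0 and 42.2 CPM in cko (adjusted p = 0.312), and 0 were called.

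Genes that copy and express mitochondrial DNA and regulators of mitochondrial biogenesis had medians above 0. For the first, 11 of 27 were below 0, the median was 0.02 and 0 were called, and Twnk, the mitochondrial helicase, had the lowest p (adjusted p = 0.574, edgeR). Among the 15 regulators, 4 were below 0 and the median was 0.19, with 0 called. Pprc1, a relative of the coactivator PGC-1, was at 29.3 and 32.6 CPM in the controls and 41.5 and 34.7 CPM in cko (log2 fold change 0.30 ± 0.13 SE, adjusted p = 0.386).

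In the pathways that feed the chain or work in its place 0 genes were called with edgeR. DESeq2 called 4 of the 20 genes of glycolysis and 0 of the citric acid cycle, against 5.6% of all genes it tested. In the citric acid cycle 16 of 17 genes were below 0, but the median was only -0.06, and without cko 1 only 8 were below 0 with a median of 0.00034. The lowest p belonged to the exception Suclg2 (log2 fold change 0.22, adjusted p = 0.489, edgeR). In glycolysis 11 of 20 were below 0, with a median of -0.06. An unadjusted p under 0.05 (edgeR) was found for 7 of the 20, against 13.6% of all genes. These lay on both sides of 0, among them Slc2a3 (log2 fold change 0.52) and Aldoc (-0.52). The lactate transporter gene Slc16a1, counted with glycolysis, was at 127 and 109 CPM in the controls and 172 and 169 CPM in cko (log2 fold change 0.54 ± 0.11 SE, adjusted p = 0.0716). For the cytosolic ribosome 63 of 96 tested genes were below 0, the median was -0.03 and 0 were called. The list goes by symbol and includes 10 Rps6k kinase genes, of which Rps6ka3 had the lowest p of the list (log2 fold change -0.33, adjusted p = 0.250).

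Markers of other cell types differed beside the OXPHOS genes. Of all genes tested, edgeR called 0.809% higher and 0.773% lower, and DESeq2 called 5.6% in either direction. Of the 8 GCp markers 4 were below 0, and 0 were called with edgeR and 1 with DESeq2. The lowest p was that of Pax6, a transcription factor of the granule lineage, at 589 and 552 CPM in the controls and 460 and 468 CPM in cko (adjusted p = 0.239, edgeR). All 10 markers of postmitotic neurons were below 0, with a median log2 fold change of -0.64 and a summed level of 4851 and 4985 CPM in the controls and 2918 and 3635 CPM in cko. Gap43, Nefl and Nefm were called lower with edgeR, and DESeq2 called 7 of the 10. Without control 2 the calls of Nefl and Nefm were lost (adjusted p = 0.068 and 0.0672). Endothelial and mural markers were above 0 in 9 of 9 cases, with sums of 374 and 330 CPM against 459 and 511 CPM, and 0 were called with edgeR (lowest adjusted p = 0.0558, Kdr) and 5 with DESeq2.

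In the oligodendrocyte lineage 7 of 7 were above 0, with sums of 356 and 319 CPM against 381 and 401 CPM. Olig2 was called higher with edgeR (adjusted p = 0.0415), against 0.809% of all genes. This call was lost without control 1, control 2 or cko 1 (adjusted p from 0.072 to 0.129). Astrocyte and Bergmann glia markers had sums of 825 and 894 CPM against 687 and 711 CPM, with 6 of 7 below 0. Of these, 0 were called with edgeR (lowest adjusted p = 0.132, Aldh1l1) and 2 with DESeq2, against 5.6% of all genes DESeq2 tested. For microglia 1 of 6 was below 0, with sums of 208 and 174 CPM against 207 and 214 CPM (lowest adjusted p = 0.433, Csf1r). Purkinje cell markers had sums of at most 32.5 CPM in the controls and of 49.3 and 41.7 CPM in cko, with 1 of 4 tested genes below 0 (lowest adjusted p = 0.111 with edgeR, Itpr1, and 1 called with DESeq2). Erythroid markers had sums of 28.4 and 20.4 CPM in the controls and of at least 28.3 CPM in cko, with 1 of 6 tested genes below 0 (lowest adjusted p = 0.257, Hba-a2). The part of the cell makeup of the preparations in the nuclear OXPHOS difference was not tested.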

How the data were processed

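RNA-Seq counts of 2 control and 2 cko libraries were used, and the ATAC-Seq and ChIP-Seq samples were not analysed here. The authors deposited raw read counts for each gene of Ensembl 75. By the study's methods and the submitters' processing notes, reads were trimmed with Trim Galore 0.4.1, aligned to mm10 with TopHat2 2.0.14 and counted with HTSeq 0.6.1p1 in intersection-strict mode, skipping alignment qualities under 3. DESeq2 1.8.1 was the authors' test, and the sources used here do not say whether counting used strand. Libraries were made from gel-isolated fragments of a set size range.

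Names, types and coordinates came from GENCODE vM21 on GRCm38, for 37607 of the 38924 genes. Genes were kept by filterByExpr and scaled by TMM in edgeR 4.0.16 (R 4.3.3), and cko was compared with control by the robust quasi-likelihood test, with Benjamini-Hochberg adjustment over 16436 genes and a threshold of 0.05. Standard errors were obtained from the log2 fold change and its F statistic. Alternatives were total counts, DESeq2 size factors, scaling without mitochondrial genes, no filter, DESeq2 1.42.0, no robust option, the replicate number as a block and leaving out each library. Lengths are those of 1 principal transcript per gene. Copies were sought as 31-base words over 22 sequences of GRCm38.p6. The fit was tested on simulated data.

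Members, lists and rules were chosen with earlier results of these data known. Named were all mitochondrial genes, each called nuclear member, per complex the 2 members with the lowest p and the one highest per length, the tissue-restricted isoforms, and in each other list the called members or the one with the lowest p. The values of 1 member are not reported here.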

Additional observations from a re-analysis of the deposited data

How the results depend on the processing

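Of all genes tested 260 were called, against 727 without the filter on low counts, 891 with DESeq2, 1010 with the replicate block and 115 to 712 when a library was left out. Of the nuclear genes 1 was called, against 0 without the robust option, 3 with the replicate block and 0 with each library left out. The 3 are Cox6a2 (adjusted p = 0.0106, edgeR), Ndufb7 (0.0381) and Ndufs5 (0.0359), and 6.15% of all genes were called with the block. The labels give the genotypes the same replicate numbers without saying that these pair the libraries, and the deviations of same-numbered libraries correlated with r = 0.187 over 16436 genes. The median log2 fold change of the nuclear genes was -0.098 with total counts and ran from -0.22 to -0.076 with a library left out, and that of the mitochondrial genes from -0.65 to 0.48. The cause was not tested. Of 287 values of named genes under other settings 274 kept direction and call. With a library left out, 36 such values changed sign and 124 kept direction and call.

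The 10 values that changed sign under other settings lay near 0. With the replicate block they were mt-Nd1 (-0.015), mt-Nd2 (-0.024), mt-Nd3 (-0.0046) and Cox4i2 (-0.0058), with total counts mt-Nd4 (0.028), mt-Cytb (0.034) and mt-Co3 (0.014), and for Atp5g1 DESeq2 size factors (-0.0044), no filter (-0.0037) and DESeq2 (-0.0069). With a library left out, log2 fold changes ran from -0.63 to 0.51 for mt-Nd1, -0.72 to 0.59 for mt-Nd2, -0.38 to 0.37 for mt-Nd3, -0.84 to 0.53 for mt-Nd4, -0.35 to 0.56 for mt-Nd5, -0.65 to 0.89 for mt-Nd6, -0.66 to 0.46 for mt-Cytb, -0.73 to 0.35 for mt-Co1, -0.73 to 0.43 for mt-Co2, -0.61 to 0.40 for mt-Co3, -0.81 to 0.72 for mt-Atp6 and -0.29 to 0.42 for mt-Atp8. They ran from -0.027 to 0.028 for Atp5g1, -0.20 to 0.086 for Atp5g2, -0.29 to 0.0022 for Atp5g3, -0.27 to 0.27 for Cox4i2, -0.35 to 0.014 for Cox6a1, -0.36 to 0.023 for Cox7a2, -0.13 to 0.52 for Ndufa4l2 and -0.33 to 0.04 for Ndufaf2. Where a genotype was left with 1 library, it was assumed to vary like the other.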
